A study of Mus musculus with 4 samples.

Results

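The miR-29 family of microRNAs was followed in small RNA libraries from mouse sperm through its 4 hairpins, mmu-mir-29a, mmu-mir-29b-1, mmu-mir-29b-2 and mmu-mir-29c, written below without the mouse prefix. They were found by name among the 605 miRNA hairpins listed, and all 4 were among the 206 hairpins that averaged 10 or more RPM (reads per 1e6 reads, as scaled by the authors) over the libraries. Sperm came from the cauda epididymis, where mature sperm are stored, of adult C57BL/6 mice. Mice of an extra cross to wildtype were compared with mice of the original cross, using sperm of 2 mice for each cross, every mouse sequenced as its own library. The study's title sets sperm in which a LoxP site, the sequence that Cre recombinase cuts, can be silenced against sperm in which it cannot. The labels state neither which cross is the susceptible one nor which alleles the mice carried. The values were deposited as 2 tables, each holding the library of that replicate number from both crosses, so differences are also given within each table. The hairpins were chosen by their RPM in this same comparison, as higher in the extra cross, and their difference between crosses is therefore a description without a test.

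A microRNA is cut from a hairpin, and 1 arm is loaded into an Argonaute protein, which it guides to messenger RNAs that pair with its seed, the bases near its 5′ end. The guide strand of miR-29 is the 3p arm. The family is known as a repressor of collagens and other extracellular matrix genes, and of DNMT3A and DNMT3B, the enzymes that place DNA methylation de novo. It also targets TET enzymes and thymine DNA glycosylase, which act in DNA demethylation. It is abundant in differentiated cells, fibroblasts and epithelia among them.

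The sequences that define the family are the 3p arms, given 5′ to 3′ from RefSeq (GRCm38.p6) with the seed, bases 2 to 8, in capitals.
miR-29a-3p: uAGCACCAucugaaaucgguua
miR-29b-3p: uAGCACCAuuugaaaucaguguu
miR-29c-3p: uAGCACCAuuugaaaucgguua
Among 1738 mature mouse arms searched, AGCACCA at bases 2 to 8 was found in these alone. Counted from the 5′ end, miR-29c-3p differs from miR-29a-3p by C10U only, outside the seed. Against miR-29c-3p, miR-29b-3p carries G18A, U21G and A22U and is 1 base longer, at 23 against 22 bases. A read of miR-29a and a read of miR-29c are thus told apart on this arm by 1 base.

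The hairpins lie in 2 loci. On chromosome 6, minus strand, mir-29a (chr6:31062660-31062747) and mir-29b-1 (chr6:31063023-31063093) are 275 bases apart. On chromosome 1, plus strand, mir-29b-2 (chr1:195037040-195037120) and mir-29c (chr1:195037547-195037634) are 426 bases apart, within the long noncoding gene A330023F24Rik and opposite the minus-strand gene Cd46 (GENCODE M21, GRCm38). Both loci encode the same miR-29b-3p, shown here by its seed in capitals within the hairpins.
mir-29b-1: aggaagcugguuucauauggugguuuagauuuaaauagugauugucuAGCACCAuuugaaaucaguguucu
mir-29b-2: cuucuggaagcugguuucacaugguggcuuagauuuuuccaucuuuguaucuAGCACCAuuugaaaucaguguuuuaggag
A read from that arm cannot be assigned to 1 of the 2 hairpins.

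Most RPM values of the miRNA class (70.3% to 73.5% by library) were whole multiples of 1 smallest step within 0.02 reads, which gave the depth. A single read was worth 0.642 and 0.238 RPM in extra-cross replicates 1 and 2, and 1.58 and 0.561 RPM in original-cross replicates 1 and 2. The scale thus rested on 632859 to 4205692 reads. The cross was not the only difference between libraries, since the miRNA class summed to 441544 and 140437 RPM in the extra cross and to 275809 and 117322 RPM in the original cross. Transcript fragments of 9 sperm genes, among them the protamines Prm1 and Prm2, stayed at or below 3.16 RPM each in every library, and 8 of the 9 were at 0 in at least 1 library. Hairpin mir-34c, of the spermatogenic miR-34 and miR-449 family, was at 1703 and 1132 RPM in the extra cross and at 1828 and 707 RPM in the original cross, while mir-449b was not listed. RNA typical of other epididymal cells was also present, and its levels are given below. Whether it came from such cells in the samples was not tested. In such bulk RNA, a different number of cells of a type and a different amount of RNA per cell cannot be told apart.

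Hairpin mir-29a carried most of the family in every library. It had 2826 and 960.4 RPM in the 2 extra-cross libraries, against 1509 and 489.8 RPM in the 2 original-cross libraries. It made up 77.8% and 77.1% of the family in the extra cross and 83.4% and 79.0% in the original cross. Among miRNA hairpins it ranked 17th and 23rd in the extra cross and 24th and 33rd in the original cross. The RPM values of the crosses overlapped, because both libraries of replicate 1 were higher than those of replicate 2, by 2.94-fold in the extra cross and 3.08-fold in the original cross. Within a table the extra-cross library was higher each time, 1.87-fold in replicate 1 (95% interval 1.75 to 2.01) and 1.96-fold in replicate 2 (1.82 to 2.11). These and the following intervals are exact binomial intervals for the reads of 2 libraries and cover counting error only, not the spread between mice.

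Hairpin mir-29c, from the chromosome 1 locus, was the second most abundant member. It had 745.5 and 248.0 RPM in the extra cross, against 279.7 and 115.0 RPM in the original cross. It stood 44th and 53rd among hairpins in the extra cross, and 78th and 77th in the original cross. As for mir-29a, the RPM values of the crosses overlapped, while the extra-cross library was the higher one within each table. The ratio was 2.67 in replicate 1 (2.27 to 3.14) and 2.16 in replicate 2 (1.85 to 2.52). For every read of mir-29c there were 3.79 and 3.87 reads of mir-29a in the extra cross, against 5.40 and 4.26 in the original cross. In replicate 1 the mir-29c interval lay above that of mir-29a, and in replicate 2 the intervals of the 2 hairpins overlapped. Each interval compares single libraries and covers counting error only, so this is a description and no test between the hairpins or crosses.

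The mir-29b copies were scarce. Hairpin mir-29b-1 had 31.0 and 18.8 RPM in the extra cross, against 10.3 and 7.29 RPM in the original cross. Hairpin mir-29b-2 had 30.4 and 18.5 RPM in the extra cross, against 10.3 and 7.85 RPM in the original cross. For both copies the lower extra-cross library lay above the higher original-cross library, so the RPM values of the crosses did not overlap. Such separation with the extra cross higher was seen in 24 of the 206 hairpins (11.7%). The copies differed by 1 read at most in each library, so their levels cannot be ordered. Together they stood for 95.7 and 157 reads in the extra cross, and for 13 and 27 reads in the original cross. Their summed RPM was 2.99-fold higher in the extra cross in replicate 1 (1.67 to 5.84) and 2.46-fold higher in replicate 2 (1.63 to 3.86). Reads of mir-29a outnumbered those of both copies together by 46.0 and 25.7 to 1 in the extra cross, and by 73.5 and 32.3 to 1 in the original cross.

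**Figure D1:**
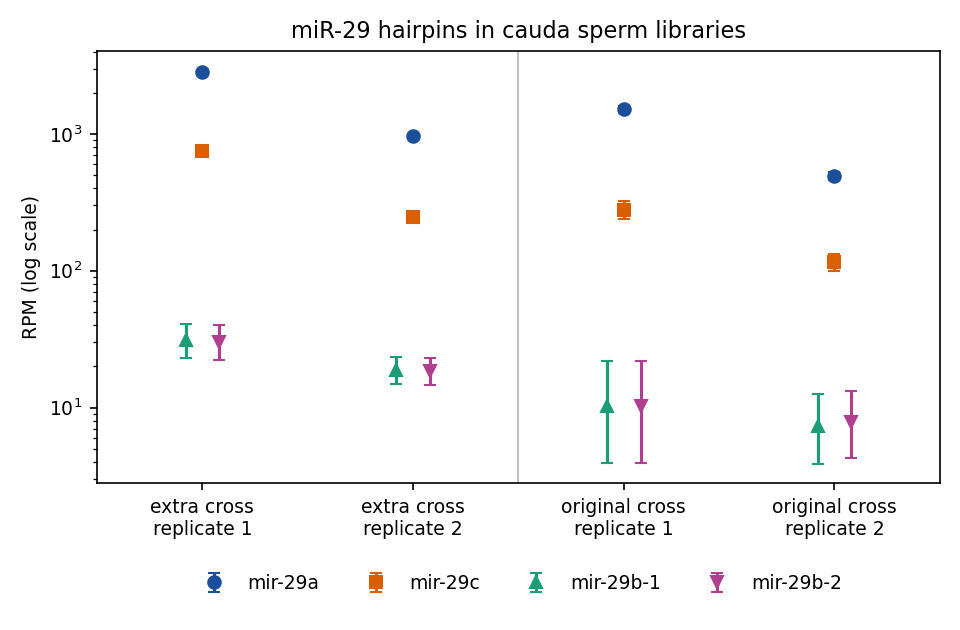
RPM on a log scale for the 4 miR-29 hairpins in the 2 extra-cross and 2 original-cross libraries; points are single libraries and bars are exact 95% Poisson intervals for counting error. The order mir-29a, mir-29c, mir-29b holds in all 4 libraries, with mir-29a between 489.8 and 2826 RPM and each mir-29b copy between 7.29 and 31.0 RPM.

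Summed over the 4 hairpins, the family had 3633 and 1246 RPM in the extra cross, against 1809 and 619.9 RPM in the original cross. The mean was 2440 ± 1688 RPM in the extra cross and 1215 ± 841 RPM in the original cross (SD, n = 2 each), so the crosses differed by less than the SD of the extra cross but by more than the SD of the original cross. Within the tables the ratio was 2.01 in replicate 1 (1.88 to 2.14) and 2.01 in replicate 2 (1.88 to 2.15). The difference between replicate numbers was larger than that between crosses, since replicate 1 exceeded replicate 2 by 2.92-fold in both crosses.

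The whole miRNA class moved with the replicate number, and within each table it was also higher in the extra cross. Each hairpin was therefore also expressed as a share of the class. On that scale the family came to 0.823% and 0.887% of the class in the extra cross, against 0.656% and 0.528% in the original cross. The ratio of the family share was 1.25 in replicate 1 and 1.68 in replicate 2, beside 2.01 in both for RPM. For mir-29a the share was 0.640% and 0.684% in the extra cross, against 0.547% and 0.417% in the original cross. For mir-29c it was 0.169% and 0.177% in the extra cross, against 0.101% and 0.0980% in the original cross. The mir-29c shares of replicates 1 and 2 lay close together within each cross, and the gap between crosses was wider. For mir-29b-1 the share was 0.00703% and 0.0134% in the extra cross, against 0.00372% and 0.00622% in the original cross. For mir-29b-2 it was 0.00688% and 0.0132%, against 0.00372% and 0.00669%. For all 4 hairpins, of which the mir-29b copies are near-duplicates, both extra-cross shares lay above both original-cross shares. This was so for 22 of the 206 hairpins (10.7%). As a share of the class, the extra cross exceeded the original cross by 1.17-fold and 1.64-fold for mir-29a in replicates 1 and 2, and by 1.67-fold and 1.8-fold for mir-29c. Much of the class sum came from mir-10b and mir-10a, which also had more RPM in the extra cross within each table. Hairpin mir-10b had 151120 and 45025.6 RPM in the extra cross, against 85208.5 and 33062.4 RPM in the original cross. For mir-10a the values were 111065 and 26893.3 RPM, against 50396.7 and 21536.5 RPM.

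**Figure D2:**
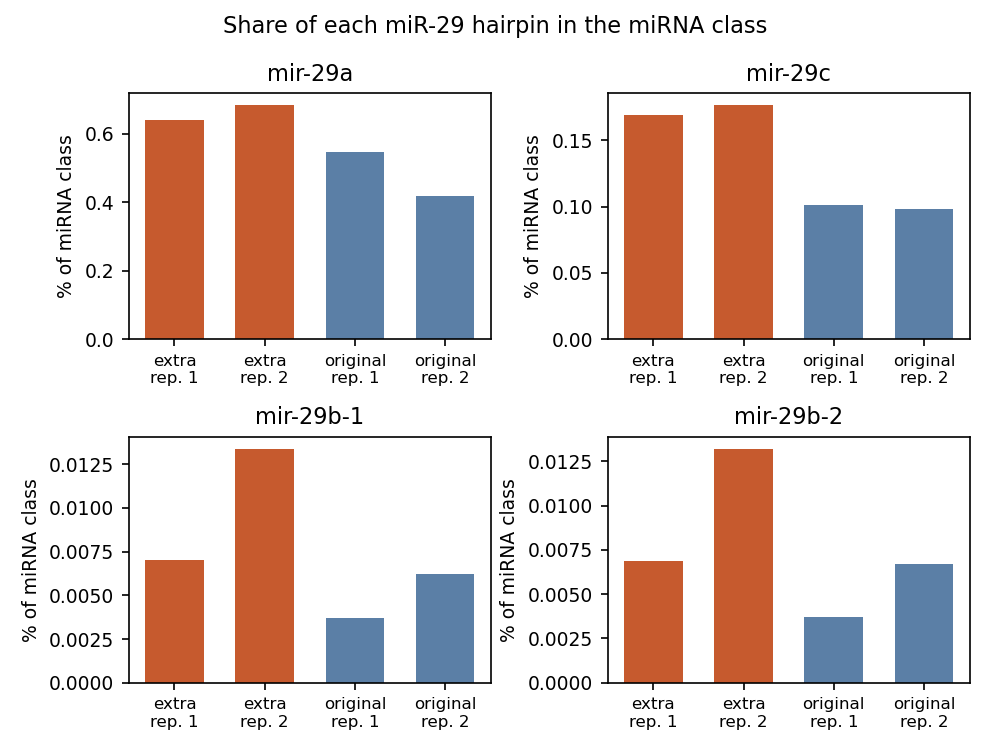
Share of each miR-29 hairpin in the summed RPM of the miRNA class (%), 1 bar per library, extra cross left and original cross right; each panel has its own axis from 0. In all 4 panels both extra-cross bars are taller than both original-cross bars, narrowly for mir-29b-2 at 0.00688% against 0.00669%.

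The log2 fold changes, extra over original cross, were computed on log2(RPM + 1) and averaged over the tables. They were 0.94 for mir-29a, 1.26 for mir-29c, 1.38 for mir-29b-1 and 1.31 for mir-29b-2. Ranked among the 206 hairpins from the highest down, these stood 26th, 12th, 6th and 10th. Since replicate 1 was higher than replicate 2 in both crosses, leaving out 1 library shifted these values, with no change of sign. Leaving out extra-cross replicate 1 put mir-29a at 0.16, and leaving out original-cross replicate 2 put it at 0.13. Without the other library of each cross it was at 1.72 (extra cross) and 1.75 (original cross). In the same order of left-out libraries, mir-29c was at 0.46, 0.62, 2.05 and 1.89. The mir-29b copies stayed between 0.97 and 1.73. With each class scaled to its own sum, mir-29a was at 0.47, mir-29c at 0.79, mir-29b-1 at 0.95 and mir-29b-2 at 0.88. The median over hairpins was then -0.27. The family median was 1.28, with 1.44 in replicate 1 and 1.12 in replicate 2, beside a median over all 206 hairpins of 0.20, with 0.26 and 0.13. In each of the 2 tables the extra cross was the higher one for all 4 members. This was so for 88 of the 206 hairpins (42.7%), while 48 (23.3%) were lower in both. The 2 mir-29b copies cannot be told apart on the 3p arm, so they enter the family median and this count as near-duplicates. The 4 hairpins summed had a log2 fold change of 1.01. Over the 760 small RNA features that reached a mean of 10 RPM, limma with cross as its only term called 0 (0.0%) at a Benjamini-Hochberg adjusted p of 0.05. The lowest adjusted p of any feature was 0.199, and 112 features (14.7%) had an unadjusted p below 0.05. The result depends on the model, since 171 of the 760 passed with a replicate block added. Nothing in the labels says that the replicate numbers mark pairs.

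**Figure D3:**
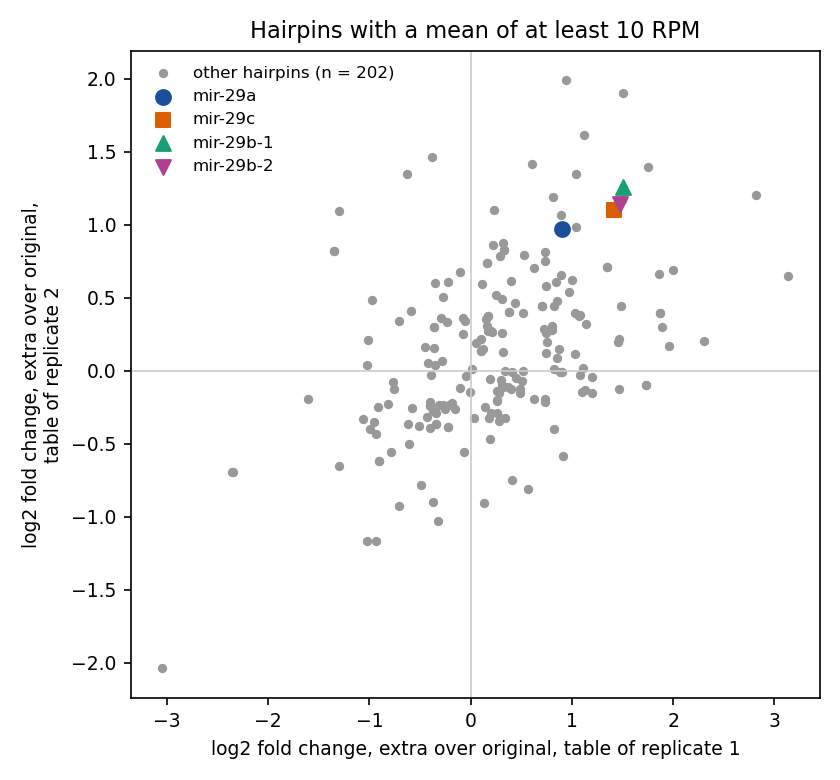
Log2 fold change of each of the 206 hairpins, extra over original cross, in the table of replicate 1 (x axis) and of replicate 2 (y axis); grey points are the 202 hairpins outside the family. The miR-29 hairpins lie in the upper right quadrant, at 0.90 to 1.51 in replicate 1 and 0.97 to 1.25 in replicate 2, with other hairpins around and beyond them.

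Hairpins of other families had profiles as close to the family as its own members. Likeness was measured as the Euclidean distance over the 4 libraries between a hairpin's log2(RPM + 1) values, centred on their mean, and the mean centred profile of the 4 members. The nearest of 202 other hairpins was mir-20a, a member of the growth-associated miR-17-92 cluster, at a distance of 0.19. It had 55.2 and 21.4 RPM in the extra cross and 19.0 and 8.98 RPM in the original cross. Next came mir-362 at 0.23, mir-32 at 0.31, mir-429 at 0.33 and mir-200a at 0.41, beside a median of 1.36 over the 202. The members themselves lay at 0.41 for mir-29c, 0.48 and 0.52 for the mir-29b copies and 0.65 for mir-29a. With 4 libraries that share their table and class sums, this is a description only.

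Both mir-429 and mir-200a are epithelial microRNAs of the miR-200 family. All 5 listed epithelial hairpins (mir-200a, mir-200b, mir-200c, mir-141 and mir-429) were present, and 4 had more RPM in the extra cross within each table. The same held for 42.7% of all 206 hairpins. Their summed level was 10409 and 5315 RPM in the extra cross, against 4394 and 2055 RPM in the original cross. The 6 hairpins typical of smooth muscle and stroma (mir-143, mir-145a, mir-199a-1, mir-199a-2, mir-199b and mir-214) ran the other way, with 5 lower in both tables. They summed to 3382 and 5078 RPM in the extra cross, against 8547 and 6264 RPM in the original cross. Among all 206 hairpins 23.3% were lower in both tables, and mir-199a-1 and mir-199a-2 had nearly the same values. The 7 blood hairpins, which include the red cell mir-451a and mir-486a, summed to 10702 and 918.2 RPM in the extra cross, against 6101 and 1048 RPM in the original cross. Of these, 3 were higher and 2 lower in the extra cross in both tables. No member of these lists was at 0 in any library, and their part in the miR-29 levels was not tested.

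The transcript that spans the chromosome 1 locus was near the limit of detection. A330023F24Rik had 1.93 and 0.476 RPM in the extra cross, against 3.16 and 0 RPM in the original cross, which is a few reads at most.

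The known targets of the family were looked up among the RefSeq transcripts of the same libraries. In a small RNA library these rows are short fragments of transcripts, so they are not a measure of intact messenger RNA. The RefSeq rows of original-cross replicate 1 were deposited with a 1-read step 26.2 times smaller than its miRNA rows and were multiplied by that ratio, whereas the table of replicate 2 needed no such step. A miR-29 seed match in a 3′ UTR reads TGGTGCT, the complement of the seed. It was searched on the transcript strand of annotated 3′ UTRs (GENCODE M21) and found in 2905 of 21020 genes (13.8%). Of 62 listed targets and matrix genes, 53 held it. The list was built around known targets, so a high share follows from how it was made and is no support for them. The first match in the longest 3′ UTR is shown for 2 collagens that dominated the fragments and for the 2 de novo methyltransferases, with the 7 matching bases in capitals (GRCm38, plus strand).
Col1a1, chr11:94952524-94952545: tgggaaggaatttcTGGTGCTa
Col3a1, chr1:45348968-45348989: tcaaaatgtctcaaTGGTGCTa
Dnmt3a, chr12:3908558-3908579: tcccgacttcataaTGGTGCTt
Dnmt3b, chr2:153686613-153686634: agagtagcccggcaTGGTGCTc
A match is a description of the sequence and does not show that the site is used.

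Fragments of the DNA methylation targets were too few to compare. Dnmt3a had 0.642 and 0 RPM in the extra cross and 0 and 0.561 RPM in the original cross, which is 1 read in each of 2 libraries. Dnmt3b had 0 and 0.238 RPM in the extra cross and was listed at 0 in the original cross. The demethylation enzymes Tet1, Tet3 and Tdg had at most 2.37 RPM in any library. Tet2 reached 5.14 and 2.38 RPM in the extra cross and 1.58 and 6.17 RPM in the original cross. None of the 6 had a mean of 10 RPM, so none entered the test, although all 6 hold the seed match.

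Collagen fragments were abundant, with lower values in the extra cross that did not pass the test. Col1a1, a chain of type I collagen, had 439.4 and 643.1 RPM in the extra cross, against 1244 and 1700.1 RPM in the original cross. Its partner chain Col1a2 had 310.7 and 350.5 RPM in the extra cross, against 681.6 and 801.1 RPM in the original cross. Col3a1, the type III chain, had 233.2 and 244.4 RPM in the extra cross, against 530.5 and 626.3 RPM in the original cross. For each of these the 2 extra-cross libraries lay below both original-cross libraries. That separation was also seen in 258 of all 477 tested RefSeq genes (54.1%), so it is common in this class. The log2 fold changes were -1.45 ± 0.34 for Col1a1, -1.16 ± 0.32 for Col1a2 and -1.27 ± 0.32 for Col3a1 (SE, limma), each with an adjusted p of 0.165. In the table of replicate 2 alone, Col1a1 was at -1.40 and Col3a1 at -1.35. With the deposited scale of original-cross replicate 1 the overall values of all 3 turned positive (0.89 to 1.17). They stayed below the median of the 299 genes then tested, which was 1.49. Of these 3, Col1a1 and Col3a1 hold 1 seed match each and Col1a2 holds none.

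No listed target passed the test. Of the 477 RefSeq genes that averaged 10 or more RPM, 0 (0.0%) were called by limma after Benjamini-Hochberg adjustment, while 114 (23.9%) lay below 0.05 before it. Of the 62 listed genes 29 were tested, and 19 of them had an unadjusted p below 0.05, all with lower values in the extra cross. The values of 28 of the 29 were lower in both tables, as were 341 of all 477 genes (71.5%), while 44 of the 477 (9.22%) were higher in both. The exception was Mmp2, a gelatinase, with 18.0 and 16.6 RPM in the extra cross and 14.2 and 25.8 RPM in the original cross. The median log2 fold change of the 29 was -0.89, with -1.04 in replicate 1 and -0.74 in replicate 2, beside -0.50 over all 477 genes, with -0.62 and -0.37. Leaving out original-cross replicate 1 put the median of the 29 at -0.86, and leaving out original-cross replicate 2 put it at -0.97. Some RefSeq genes, listed ones among them, then passed the threshold, and not all were lower in the extra cross. Such a fit assumes that the remaining library varies like the extra cross. The list was chosen with results of these libraries known, so its direction is not independent evidence.

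With original-cross replicate 1 rescaled, all 4 groups of tested targets had a negative median, beside -0.50 over all 477 genes. With its deposited scale the median of all tested targets turned to 1.1, beside 1.49 over the 299 genes then tested. With median-ratio scaling the target median was -0.38, beside 0.02 over the 469 genes then tested. The 5 tested fibrillar collagens had a median of -1.27, and Col5a1, a type V chain, had 18.6 and 32.0 RPM in the extra cross, against 98.0 and 52.4 RPM in the original cross. The 8 tested collagens of other types had a median of -0.87. Among them the beaded-filament chains Col6a2, Col6a1 and Col6a3 had log2 fold changes of -1.21, -1.0 and -0.99, and Col4a2 of the basement membrane had -0.75. The 12 tested genes of other matrix proteins had a median of -0.84. In that group the collagen-binding Sparc had 183.6 and 201.9 RPM in the extra cross, against 317.6 and 345.0 RPM in the original cross. The basement membrane proteins Hspg2 and Nid1 had log2 fold changes of -0.95 and -0.83, and the microfibril protein Fbn1 had -0.44, or 0.073 with median-ratio scaling. Of the 29 tested genes 22 hold the seed match, and Sparc, Hspg2, Nid1 and Col6a1 are among those without it. The 4 tested genes of survival and signalling had a median of -0.66. There Pik3r1, a regulatory subunit of phosphoinositide 3-kinase, had -0.69, the RNA-binding Zfp36l1 had -0.64, cyclin Ccnd2 had -0.97 and the GTPase Cdc42 had -0.21, or 0.28 with median-ratio scaling. The apoptosis regulator Mcl1 lay below the minimum, at 11.6 and 5.94 RPM in the extra cross and 12.6 and 5.61 RPM in the original cross.

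**Figure D4:**
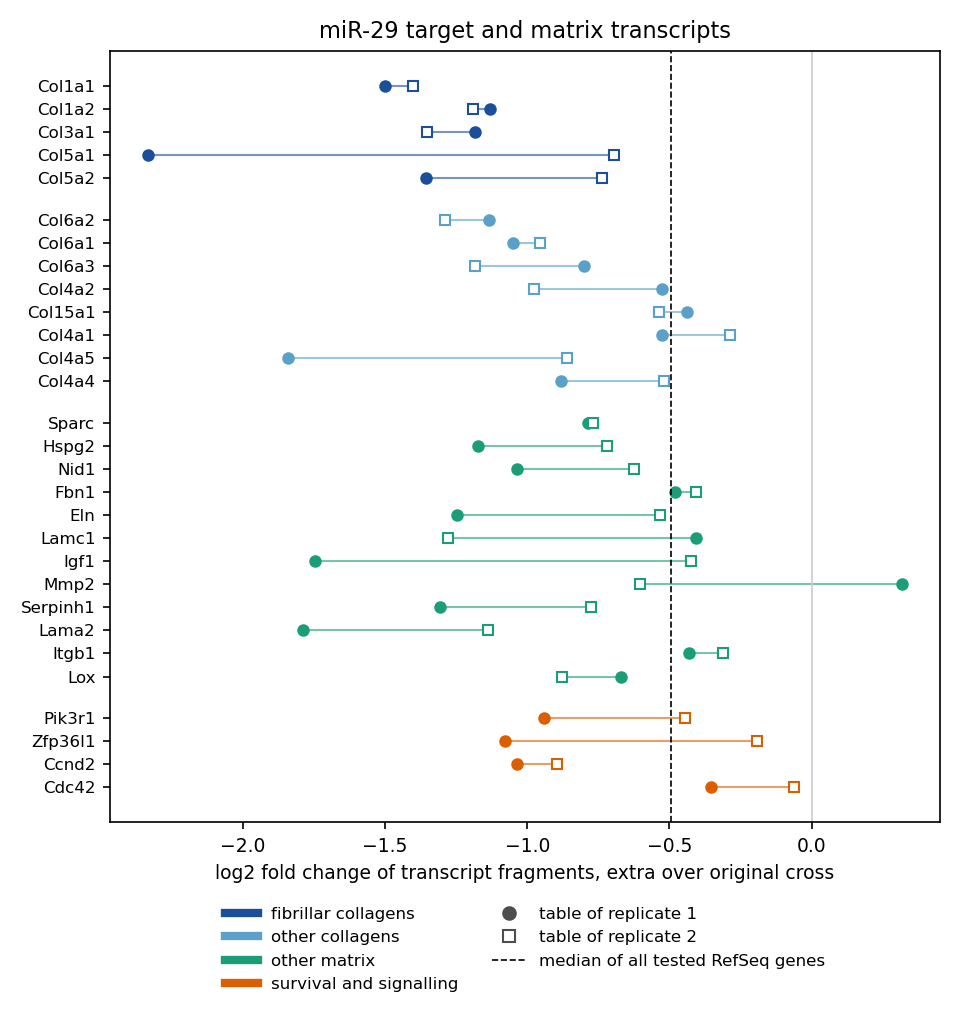
Log2 fold change of transcript fragments, extra over original cross, with original-cross replicate 1 rescaled, for the 29 tested target and matrix genes within the table of replicate 1 (filled circles) and of replicate 2 (open squares); colours mark the target groups and the dashed line is the median of all 477 tested RefSeq genes, -0.50. Collagen points reach -2.33 (Col5a1, replicate 1), and Mmp2 in replicate 1 is the only point above 0.

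Genes with and without a seed match were set side by side. Among the 402 tested genes with an annotated 3′ UTR, the 80 with a match had a median log2 fold change of -0.63 and the 322 without had -0.53. In the table of replicate 2 the medians were -0.44 and -0.43. Outside the target list, 58 genes with a match had a median of -0.60 and 315 without had -0.52, and in the table of replicate 2 the order turned, with -0.38 for genes with a match and -0.43 for those without. Of the 80, 70 (87.5%) were lower in both tables, as were 246 (76.4%) of the 322, beside 71.5% of all 477 genes. Outside the target list the shares were 84.5% and 75.9%. None of the 80 was higher in both tables, and 20 of the 322 were, beside 9.22% of all 477. Genes with a match had longer 3′ UTRs, with a median of 2719 bases against 884.5 bases, and the difference between the sets was not tested.

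Stromal marker transcripts also had lower values in the extra cross, as did most tested RefSeq genes. Of 9 transcripts of smooth muscle and stroma, 7 had less RPM there within each table, beside 71.5% of all 477 genes. Their median log2 fold change was -0.46, beside -0.50 over all 477. Most of the 9 had a mean under 10 RPM, unlike the 477, and log2(RPM + 1) understates low features. The 2 sets are thus not alike in level. The list summed to 159 and 163 RPM in the extra cross, against 275.8 and 203.0 RPM in the original cross. Most of that sum was decorin (Dcn), a proteoglycan of fibroblasts, at 104 and 107 RPM in the extra cross and 166 and 127 RPM in the original cross. The smooth muscle marker Cnn1 was at 0 in original-cross replicate 1 and below 1.2 RPM elsewhere. Epididymal epithelium transcripts summed to 247.7 and 198.9 RPM in the extra cross, against 92.2 and 213.2 RPM in the original cross, with Lcn8, Cst8 and Defb1 at 0 in original-cross replicate 1. The largest part was Gpx5, at 140.9 and 89.0 RPM in the extra cross and 74.3 and 117.6 RPM in the original cross. Blood transcripts summed to 68.5 and 43.4 RPM in the extra cross, against 106.1 and 50.5 RPM in the original cross. Most of that sum was Lyz2, at 60.0 and 30.7 RPM in the extra cross and 94.0 and 41.1 RPM in the original cross. The globin transcripts of the list were at or below 3.1 RPM each. The part of these cells in the collagen values was not tested.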

How the data were processed

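Small RNA of cauda epididymal sperm was sequenced from 4 mice with the Illumina TruSeq small RNA kit after size selection on a gel, with all libraries in 1 lane, per the labels' protocols. CASAVA 1.8.2, Bowtie 1.1.2 and the build mm10 are named in the submitters' processing notes, with no role or order. For trimming and for reads with several matches the step is not stated there or in the labels. The values were deposited by the authors as RPM, per the file headers, in 2 tables of 53800 and 66068 features. A feature missing from 1 table was given 0 there. The total behind RPM is not stated.

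The commonest miRNA value of a column was taken as 1 read. Of small RNA values up to 20 reads, 28.6% to 36.3% were whole within 0.02 reads, so no count model was run. Differences are extra minus original cross on log2(RPM + 1), which understates low features. Features with a mean under 10 RPM were left out. Small RNA features (5 classes) and RefSeq genes were fitted separately with limma 3.58.1 (R 4.3.3, variance trend, cross as the only term, Benjamini-Hochberg). The limma fits were tested on simulated data. Of 68434 RefSeq transcripts, 55925 (81.7%) matched a symbol and were summed to 16785 genes. RefSeq values of original-cross replicate 1 were multiplied by the ratio of 1-read values (1.58 over 0.0603 RPM).

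The members and lists were chosen with earlier results of these data known. The text names all members, the 5 nearest hairpins, and up to 4 abundant tested targets per group; Tet2, Mmp2, Mcl1, the other DNA methylation genes and the markers named singly were chosen after their values were seen. Alternatives covered pseudocount, filter, scaling, transcript choice, left-out libraries and a replicate block. Intervals cover counting error only, and reads without molecular identifiers are not independent molecules. Python 3.11.15, pandas 2.3.3, scipy 1.17.1 and matplotlib 3.10.9 were used.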

Additional observations from a re-analysis of the deposited data

How the results depend on the processing

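The family median log2 fold change (1.28) was positive under all 9 alternatives, at 1.59 with median-ratio scaling, 0.83 with each class scaled to its own sum, and 0.72 to 1.72 with 1 library left out, where the difference between tables enters the value. The median over all small RNA features was -0.12, and 0.20 with median-ratio scaling. No small RNA feature passed under the other alternatives, but 171 did with a replicate block. Same-numbered libraries deviated together (r = 0.87 across 760 features), which is a hint from the data, since nothing in the labels says that the numbers mark pairs. With the block, 0 RefSeq genes passed.

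The target median (-0.89) was -0.47 with each class scaled to its own sum and -0.38 with median-ratio scaling, where the median of all RefSeq genes was -0.07 and 0.02, and -0.61 with no filter. With the RefSeq values of original-cross replicate 1 as deposited it was 1.1, beside 1.49 for all 299 genes then tested. The log2 fold changes then were 0.89 for Col1a1, 1.17 for Col1a2, 1.05 for Col3a1, 0.68 for Col5a1, 1.18 for Col4a2, 1.27 for Col6a1, 1.07 for Col6a2, 1.26 for Col6a3, 1.59 for Fbn1, 1.27 for Hspg2, 1.25 for Nid1, 1.30 for Pik3r1, 1.52 for Sparc and 1.1 for Zfp36l1. Median-ratio scaling gave 0.073 for Fbn1 and 0.28 for Cdc42, which was 0.19 with the class scaled to its own sum and -0.59 to 0.17 with 1 library left out. Leaving out 1 library gave 1 to 42 RefSeq genes past the threshold, with 12 without original-cross replicate 1 (Col1a1, Col3a1 and Lama2 among them) and 42 without original-cross replicate 2 (7 of the listed genes, Col1a1 and Col5a1 among them). The causes were not tested. Depth limits the mir-29b copies, which rest on 13 reads together in original-cross replicate 1, and the DNA methylation genes.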
